A study of Mus musculus with 16 samples.

Results

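Six-family and Eya-family genes of the mouse encode partner proteins, and 6 of them are described here, Six4, Six5, Eya1, Eya2, Eya3 and Eya4, of 21627 protein-coding genes considered. The members are a given list of names, and their regions were found by position, not by their values. Peaks of an antibody's 4 libraries were merged wherever they overlapped. A region was given to every protein-coding gene whose body it overlapped, and otherwise to the nearest such gene within 50 kb. In this way 25 of 24264 MyoD regions and 53 of 59960 H3K27ac regions belonged to the 6 genes.

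Six-family proteins are homeodomain transcription factors that bind DNA at MEF3 motifs, which lie in the regulatory DNA of several muscle genes. Eya proteins do not bind DNA themselves. They join Six-family proteins as coactivators, carry a phosphatase domain, and turn a Six-bound site from repression by Dach and Groucho corepressors to activation. In muscle progenitors Six-Eya complexes act with Pax3 and Pax7 and drive Myog, Met and other myogenic genes. MyoD is the myogenic factor that binds E-boxes, and H3K27ac is a histone acetylation found at active promoters and enhancers.

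The libraries came from satellite cells, which are muscle stem cells, isolated from the hindlimb of C57BL/6 mice and grown in culture. ChIP-seq with MyoD or H3K27ac antibody gave 2 LncMyoD-knockdown and 2 control libraries for each antibody. LncMyoD is a long noncoding RNA transcribed near Myod1. The labels describe a 48 h siRNA treatment against it in the same words for every sample, so a library was taken as control from its title and genotype label only. The sources used here do not say what the control cells were given. The 8 input libraries were not analysed here. Nothing in the labels ties replicates to different animals or cultures, so p-values measure only the spread between these libraries, and that spread may be technical. The fold enrichment of a peak is the authors' own value and belongs to its own list. Because these are bulk cultures, fewer cells with a bound or acetylated site and less signal per cell cannot be told apart.

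Knockdown lists held 16524 and 13146 MyoD peaks, against 17818 and 17649 in control lists. H3K27ac lists held 54082 and 39964 peaks in knockdown and 46259 and 53048 in control. Knockdown 2 had the fewest peaks with both antibodies, and the read depth behind the lists is unknown. H3K27ac peaks lay within 1 kb of an end of all 5 muscle stem cell and myoblast markers (Pax7, Myod1, Myf5, Cdh15 and Des) in all 4 libraries. Such peaks were absent in every library at Pdgfra, Pecam1, Cdh5, Ptprc, Myh11 and Sox10, but were present in all 4 at Acta2 and Cd68 and in 3 at Ly6a. Their part in the results below was not tested.

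MyoD regions at the 6 genes were concentrated at Eya2 and Eya4, which held 9 and 10 of the 25. Eya3 held 3, Eya1 held 2, Six4 held 1 and Six5 none. H3K27ac had another distribution, with 31 of 53 regions at Eya4, 7 at Eya2, 6 at Eya3, 4 each at Eya1 and Six4 and 1 at Six5. The genes differ in length, and so in the sequence that can hold a region. Eya4 spans 248 kb, Eya2 177 kb, Eya1 142 kb, Eya3 85.7 kb, Six4 14.4 kb and Six5 4.01 kb.

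**Figure D1:**
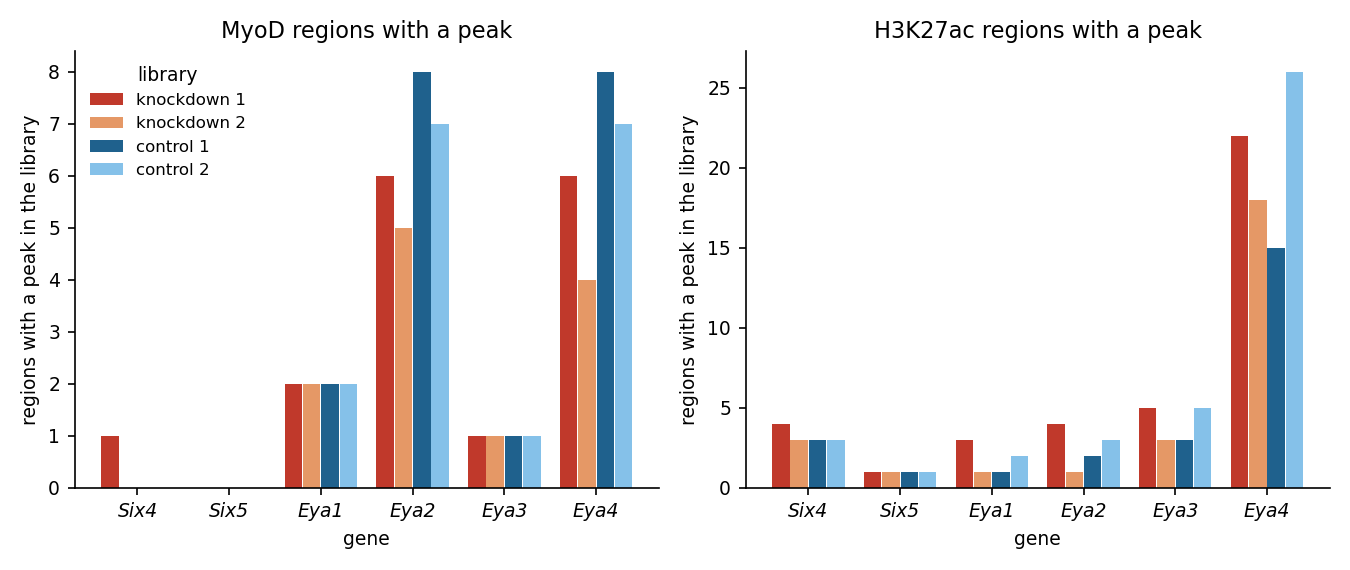
Number of MyoD regions (left) and H3K27ac regions (right) with a peak at each gene, 1 bar per library, knockdown libraries in red and orange and control libraries in blue. Eya2 and Eya4 carried most MyoD regions, with 5 to 8 and 4 to 8 per library, and Eya4 most H3K27ac regions, with 15 to 26.

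Across the 6 genes, 16 and 12 MyoD regions had a peak in knockdown libraries 1 and 2, against 19 and 17 in control libraries 1 and 2. Both knockdown libraries were lower, in the order of their whole peak lists. For H3K27ac the numbers were 39 and 27 in knockdown and 25 and 40 in control, so the groups overlapped. The sequence covered by MyoD peaks came to 5.50 and 3.77 kb in knockdown and 6.64 and 6.54 kb in control, and that covered by H3K27ac peaks to 51.6 and 37.2 kb in knockdown and 40.0 and 53.0 kb in control.

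Of the 25 MyoD regions, 9 (36%) had a peak in all 4 libraries, here termed constant, where 40.8% of all MyoD regions did. A region limited to a group had a peak in both of its libraries and in neither library of the other group. Here 1 MyoD region (4%) was control-only, against 4.55% of all, and 0 were knockdown-only, against 0.729%. Of the 53 H3K27ac regions, 23 (43.4%) were present in all 4 libraries, against 43.6% of all. H3K27ac had 0 control-only regions, against 1.46% of all, and 1 knockdown-only region (1.89%), against 0.769%. These shares lay near those over all regions, and at counts of 0 or 1 they say little about the members.

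Regions found in a single library were weak, here as over all regions. Over all, 7431 of 24264 MyoD and 19937 of 59960 H3K27ac regions were in a single library. Their median folds were 4.64 for MyoD and 3.27 for H3K27ac, against 8.36 and 7.56 for the regions in all 4 libraries. The 7 such MyoD regions had a median fold of 4.63, and the 9 present in all libraries one of 8.95. The 23 single-library H3K27ac regions had a median fold of 3.35, and the 23 present in all libraries one of 6.42. Of the single-library MyoD regions 2 came from knockdown 1 and 5 from control 1, and of the H3K27ac regions 10 came from knockdown 1, 1 from knockdown 2, 1 from control 1 and 11 from control 2.

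Six4, a homeodomain factor that acts in muscle precursors, lies on the minus strand at chr12:73099609-73114031 (mm10). A 4163-bp H3K27ac region at chr12:73109784-73113946 covered its listed starts and also reached into the neighbouring gene Mnat1. Its fold enrichment was 14.9 and 13.6 in knockdown and 15.1 and 16.6 in control. Expressed as a percentile among the 26113 H3K27ac regions present in all 4 libraries, it stood at 85.9 and 89.8 in knockdown and 91.3 and 90.8 in control. Both knockdown percentiles were lower, by 3.22 points on average (exact permutation p = 0.333, adjusted p = 1, n = 2 libraries per group). With 2 libraries against 2, that p of 0.333 is the smallest the exact test can give. MyoD had 1 peak at Six4, inside the acetylated region and only in knockdown 1, with a fold of 3.36.

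Six5, a homeodomain factor whose gene adjoins Dmpk, the kinase gene of myotonic dystrophy, had no MyoD region under the rule and 1 H3K27ac region. That region, chr7:19094133-19096393, covered the listed start, with folds of 8.73 and 7.01 in knockdown and 8.55 and 6.51 in control. Knockdown and control values overlapped. The strong signal in this neighbourhood was assigned to Dmpk, upstream of Six5. A MyoD region at chr7:19083859-19084879, 9.67 kb upstream of Six5, had folds of 18.0 and 21.2 in knockdown and 27.1 and 27.8 in control, and ranked 169 of 9909 by mean fold. A weaker MyoD region, chr7:19093876-19094218, lay 0.326 kb from Six5, overlapped its acetylated region and was given to Dmpk as the nearer gene. It had folds of 7.0 in knockdown 1, 6.28 in control 1 and 6.95 in control 2, and no peak in knockdown 2.

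Eya3, a broadly expressed member of its family, lies on the plus strand at chr4:132639025-132724765. Its promoter region, chr4:132638366-132640142, had H3K27ac folds of 12.2 and 11.1 in knockdown and 12.5 and 8.37 in control. A region 14.0 kb upstream had folds of 6.53 and 5.99 in knockdown and 6.14 and 7.0 in control, and one 20.4 kb downstream of the start 4.91 and 4.21 in knockdown and 2.97 and 5.03 in control. All 3 were present in every library and overlapped between groups in fold. None of the 3 MyoD regions at Eya3 was. The one in the promoter, 0.438 kb downstream of the start, had a peak in knockdown 2 (fold 6.66) and control 2 (4.63). The others were found only in knockdown 1 (4.79) and only in control 1 (4.63).

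Promoter sequences are shown for the 4 members with an entry among the RefSeq promoters (GRCm38.p6, the assembly also called mm10), because acetylation covered each of these starts while MyoD covered none. Each is the 250 bases before the listed start, written 5′ to 3′ on the gene's strand, with capitals marking an E-box (CANNTG, searched on both strands).
Six4 chr12:73113426-73113675, minus strand: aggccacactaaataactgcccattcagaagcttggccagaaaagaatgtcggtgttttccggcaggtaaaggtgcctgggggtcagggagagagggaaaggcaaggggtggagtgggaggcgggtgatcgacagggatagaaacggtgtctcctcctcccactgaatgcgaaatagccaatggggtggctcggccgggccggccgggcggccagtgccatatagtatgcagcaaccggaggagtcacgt
Six5 chr7:19094294-19094543, plus strand: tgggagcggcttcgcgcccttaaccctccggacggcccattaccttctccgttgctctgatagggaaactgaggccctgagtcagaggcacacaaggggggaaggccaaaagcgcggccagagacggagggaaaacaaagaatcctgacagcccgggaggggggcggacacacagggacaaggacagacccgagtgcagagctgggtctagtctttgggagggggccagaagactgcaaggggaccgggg
Eya3 chr4:132638796-132639045, plus strand: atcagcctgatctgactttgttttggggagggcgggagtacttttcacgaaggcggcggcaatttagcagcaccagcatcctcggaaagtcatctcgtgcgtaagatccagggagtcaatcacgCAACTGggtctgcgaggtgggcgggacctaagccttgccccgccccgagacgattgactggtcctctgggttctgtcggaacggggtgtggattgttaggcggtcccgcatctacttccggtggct
Eya4 chr10:23349944-23350193, minus strand: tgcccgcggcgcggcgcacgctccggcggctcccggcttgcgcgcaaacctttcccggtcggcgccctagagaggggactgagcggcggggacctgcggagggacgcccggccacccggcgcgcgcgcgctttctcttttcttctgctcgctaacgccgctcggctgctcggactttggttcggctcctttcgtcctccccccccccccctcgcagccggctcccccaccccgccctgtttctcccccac
Their base composition ranged from 58.4% G+C at Eya3 to 74% at Eya4, against a median of 52.4% over 32619 listed promoters. They held 13, 13, 18 and 35 CpG dinucleotides in the order shown, against a median of 6. Only the Eya3 window held an E-box, CAACTG, and 66.2% of all windows hold one. None held CAGCTG, which is itself a CANNTG match and is found in 13.1% of windows, or the MEF3 letters TCAGGTTTC, found in 0.389%. The listed starts of all 4 genes lay in an H3K27ac region present in all libraries, as did those of 41.2% of 17273 genes with a listed start. None of the 4 lay in a MyoD region, where 6.14% of those genes had a start.

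Eya1, whose loss in mice disturbs ear and kidney development, had the most compact arrangement. Its only constant H3K27ac region, chr1:14302799-14310826, was 8028 bp long, wider than 98.8% of such regions, and reached within 1 kb of the higher-coordinate end of the gene (chr1:14168953-14311035). Folds were 14.7 and 13.4 in knockdown and 12.3 and 13.9 in control. Its percentile was 85.2 and 89.1 in knockdown and 82.4 and 83.9 in control, a difference of 3.97 with both knockdown libraries higher (exact permutation p = 0.333, adjusted p = 1, n = 2 per group).

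Both MyoD regions of Eya1 lay inside this acetylated block and were present in all 4 libraries. The stronger, chr1:14304440-14305178, had folds of 18.6 and 10.6 in knockdown and 17.8 and 15.2 in control, with a −log10 q of 52.5 and 19.7 in knockdown and 51.2 and 40.4 in control. Knockdown 2 was the low library, while knockdown 1 was above both controls. It ranked 919 of 9909 by mean fold, and the summits of the 4 libraries lay within 49 bp. The other, chr1:14310058-14310511, had folds of 7.0 and 8.62 in knockdown and 8.26 and 11.9 in control. Its summits lay within 74 bp.

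Eya2, a coactivator that cooperates with Six-family proteins on muscle genes, showed MyoD without constant acetylation. It lies at chr2:165595028-165771727. Of its 9 MyoD regions 4 were present in all libraries, a number exceeded by 234 of 21627 genes, with no allowance for gene length. The strongest, chr2:165563086-165563945, lay 31.1 kb outside the gene body, on its lower-coordinate side. It had folds of 14.0 and 13.7 in knockdown and 17.5 and 15.9 in control, and ranked 970 of 9909. Both knockdown libraries were lower here, in fold and in percentile (83.9 and 89.2 in knockdown, 93.0 and 90.3 in control). The percentile difference was −5.14 (exact permutation p = 0.333, adjusted p = 1, n = 2 per group). The 4 summits lay within 39 bp.

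The other 3 constant MyoD regions of Eya2 lay inside the gene. The region chr2:165629828-165630349 had folds of 8.17 and 7.37 in knockdown and 13.9 and 7.29 in control, where control 1 stood apart. At chr2:165692948-165693536 the folds were 8.47 and 8.23 in knockdown and 5.52 and 7.29 in control, and at chr2:165736206-165736695 they were 10.3 and 12.5 in knockdown and 7.93 and 9.85 in control. Knockdown libraries were the higher ones at these last sites, opposite to the outer site, so MyoD at Eya2 did not move one way. The remaining 5 regions were present in 1 to 3 libraries, with folds from 4.46 to 7.62.

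None of the 4 constant MyoD regions of Eya2 overlapped an H3K27ac region present in all libraries. At 2 of them a single library had an H3K27ac peak, control 1 at the outer region (fold 3.16) and knockdown 1 at the last of those inside the gene (2.91). The gene's only constant H3K27ac region, chr2:165569592-165570220, was 629 bp long and lay 24.8 kb outside the gene body, with folds of 7.28 and 5.48 in knockdown and 4.83 and 7.69 in control. Inside the 177-kb gene body H3K27ac peaks were found in knockdown 1 alone, at 2 regions. The number of MyoD regions with a peak at Eya2 was 6 and 5 in knockdown (5.5 ± 0.707, SD) and 8 and 7 in control (7.5 ± 0.707). The difference of −2 did not pass the test (exact permutation p = 0.333, adjusted p = 1, n = 2 per group), and was −1 when every list was held to the same number of peaks and −0.5 with only peaks at a −log10 q of at least 5.

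**Figure D2:**
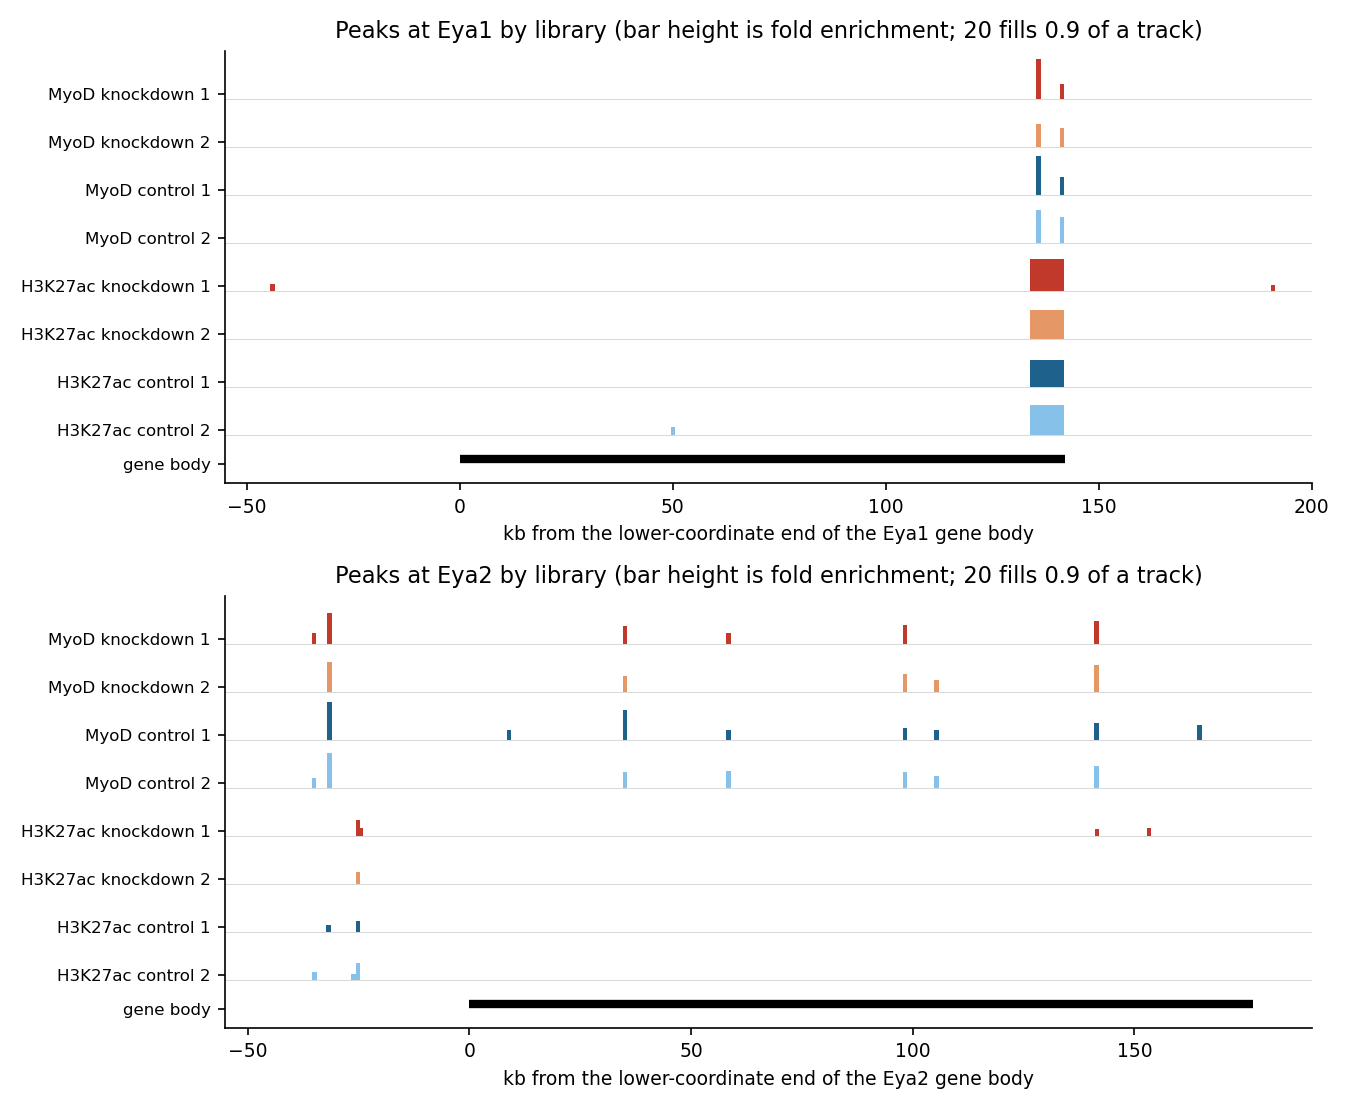
Regions with a peak at Eya1 (top) and Eya2 (bottom), by distance in kb from the lower-coordinate end of the gene body (black bar). Each track is 1 library and each bar a merged region (narrow ones drawn at a minimum width), its height the library's fold enrichment. At Eya1 the 2 MyoD regions stand within a single 8028-bp H3K27ac region, while at Eya2 the MyoD regions have little H3K27ac under them.

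Eya4, the longest of the 6 genes and one linked in humans to hearing loss and cardiomyopathy, carried the most acetylation. It lies on the minus strand at chr10:23102962-23350838. It had 14 H3K27ac regions present in all libraries, a number exceeded by 55 of 21627 genes, with no allowance for gene length. H3K27ac regions with a peak numbered 22 and 18 in knockdown and 15 and 26 in control, which overlapped (difference −0.5, exact permutation p = 1, n = 2 per group). H3K27ac covered 29.2 and 21.6 kb in knockdown and 22.4 and 31.1 kb in control.

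By mean fold over the 4 libraries, the strongest H3K27ac region of Eya4 was an intragenic one, chr10:23175781-23180182, 170 kb downstream of the listed start. Its folds were 18.2 and 13.9 in knockdown and 13.8 and 18.6 in control. The promoter region, chr10:23345472-23351193, was the widest at 5722 bp and had folds of 12.9 and 13.6 in knockdown and 15.8 and 16.6 in control. Both knockdown libraries were lower there, also by percentile (78.4 and 89.8 in knockdown, 93.0 and 90.8 in control). In control 1 the promoter region had the higher fold, 15.8 against 13.8 at the intragenic one.

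Away from the promoter, Eya4 had 12 constant H3K27ac regions inside the gene. In 5 of them both knockdown percentiles were higher than both control percentiles, against 16.4% of all constant H3K27ac regions. In 0 both were lower, against 15.9% of all. In the other 7 the groups overlapped, the strongest region among these. The promoter region, where both were lower, is not among the 12. All 5 are given here. At chr10:23184754-23186303 the H3K27ac folds were 9.64 and 7.77 in knockdown and 5.02 and 5.33 in control, with percentiles of 60.0 and 58.9 in knockdown and 26.8 and 19.96 in control. At chr10:23202127-23205362 folds were 15.8 and 13.9 in knockdown and 8.30 and 13.3 in control. At chr10:23194059-23197121 they were 15.6 and 12.9 in knockdown and 12.5 and 14.1 in control, and only the percentiles were apart (88.1 and 87.6 in knockdown, 83.1 and 84.5 in control). Only the percentiles were apart, too, at chr10:23214283-23215454, with folds of 8.37 and 7.01 in knockdown and 6.69 and 7.102 in control. The same held at chr10:23219959-23221602, with folds of 7.82 and 7.26 in knockdown and 5.21 and 7.398 in control. Folds were thus apart only at chr10:23184754-23186303 and chr10:23202127-23205362. The 5 regions were picked because their groups did not overlap in percentile and are given as a description, with no test.

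Over the 6 genes, 6 of 23 constant H3K27ac regions had both knockdown percentiles higher than both control percentiles, and 3 had both lower. Among all constant H3K27ac regions 16.4% were higher and 15.9% lower. Of the 6, 5 lay inside Eya4 and 1 was the Eya1 block. The 3 lower ones were the promoter regions of Six4 and Eya4 and the region 14.0 kb upstream of Eya3. For MyoD 2 of 9 were higher, against 16.4% of all, both inside Eya2, and 2 of 9 were lower, against 15.9% of all, at the Eya2 region outside the gene and at an Eya4 region. The counts are small and were given no test.

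One H3K27ac region of Eya4 was knockdown-only. It was 293 bp long, chr10:23197322-23197614, beside the 3063-bp constant region chr10:23194059-23197121. Its folds were weak, 2.91 in knockdown 1 and 3.95 in knockdown 2, with a −log10 q of 2.88 and 3.05 in these libraries. When peaks within 1000 bp were merged it was no longer a region of its own, and no region was then knockdown-only.

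MyoD at Eya4 was spread over 10 regions, 3 of them present in all libraries. The strongest, chr10:23177591-23178077, lay inside the strongest H3K27ac region and had folds of 9.58 and 5.09 in knockdown and 7.60 and 6.95 in control. It ranked 6472 of 9909, so by this rank MyoD at Eya4 was weaker than at Eya1 or Eya2. The other constant regions, chr10:23195255-23195762 and chr10:23196351-23196657, both lay in the 3063-bp acetylated region and had folds from 4.70 to 8.47. All 3 thus lay within constant acetylation, whereas none of the constant ones at Eya2 did.

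The control-only MyoD region of Eya4, chr10:23091582-23091923, lay 11.0 kb beyond the 3′ end of the gene. It had a fold of 7.27 in control 1 and 4.64 in control 2, with a −log10 q of 11.9 in control 1 and 4.62 in control 2, and no peak in either knockdown library. Its summits lay 65 bp apart. H3K27ac overlapped it in control 2 only (fold 3.55). At its own promoter Eya4 had a MyoD peak in control 1 alone, at −0.437 kb from the listed start, with a fold of 3.63.

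The number of MyoD regions with a peak at Eya4 was 6 and 4 in knockdown (5 ± 1.41, SD) and 8 and 7 in control (7.5 ± 0.707). Both knockdown libraries were lower, by 2.5 regions on average (exact permutation p = 0.333, adjusted p = 1, n = 2 per group). When all lists were cut to the same length the difference was 1, in the other direction, and it was −1.5 with a 10 kb limit or without knockdown replicate 2. Of 12 such tests, for 6 genes with 2 antibodies, the 2 with the smallest p were those of MyoD at Eya2 and Eya4. Of 9 percentile tests 3 had a p of 0.333, those named above for Six4, Eya1 and Eya2. No test passed adjustment, and none could have.

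**Figure D3:**
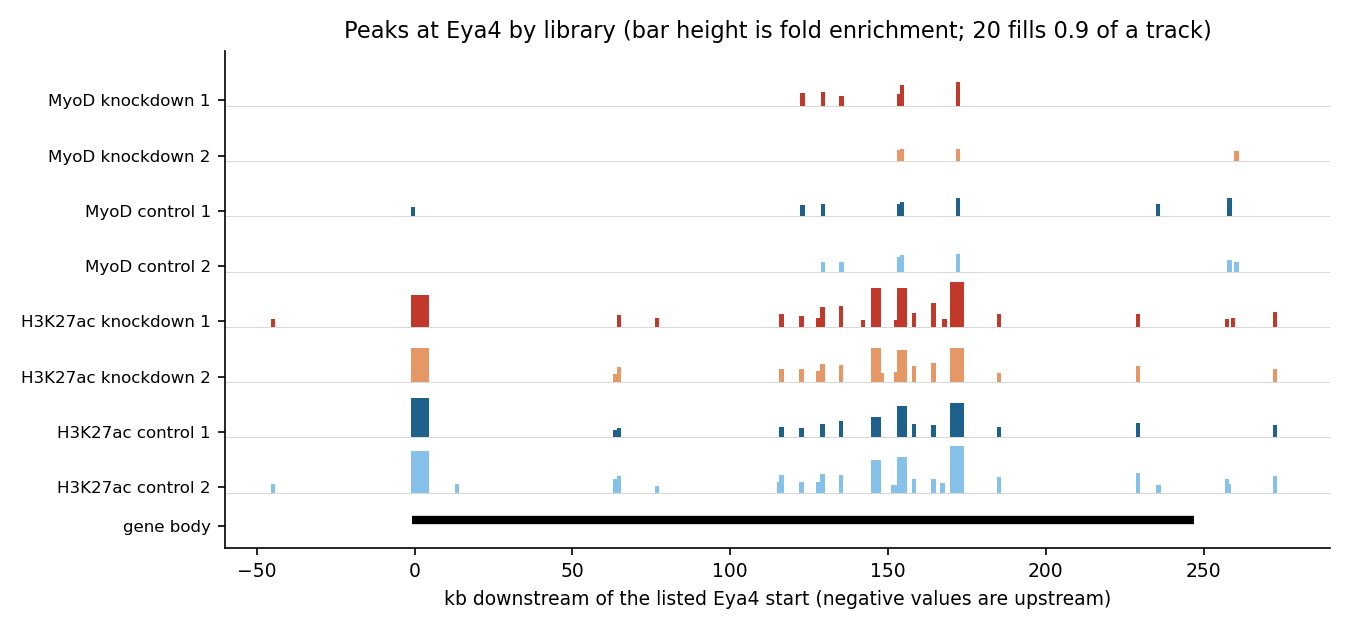
Regions with a peak at Eya4 by library, against distance in kb downstream of the listed start, with the gene body as a black bar. Each bar is a merged region (narrow ones drawn at a minimum width) and its height the library's fold enrichment. H3K27ac stands at the start and in a cluster of regions about the strongest one, 170 kb downstream, and the 3 constant MyoD regions fall in that cluster.

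Of 25 MyoD regions 18 (72%) overlapped an H3K27ac region by at least 1 base, near the 69.8% of all MyoD regions. An H3K27ac region counted here can come from other libraries than the MyoD peak. Of the 25, 12 (48%) overlapped an H3K27ac region present in all 4 libraries, a share not taken over all MyoD regions. Of the 9 constant MyoD regions 5 (55.6%) lay on constant H3K27ac, against 76.4% of all constant MyoD regions, and the 4 that did not were those of Eya2. Of the 23 constant H3K27ac regions 11 (47.8%) overlapped a MyoD region, against 44.7% of all. By library, H3K27ac peaks lay under 11 of 16 and 6 of 12 MyoD regions in knockdown and under 9 of 19 and 10 of 17 in control. As shares these were 68.8% and 50% in knockdown and 47.4% and 58.8% in control, while over all MyoD peaks they were 76.2% and 63.4% in knockdown and 69.3% and 70.8% in control. Pooled over the 6 genes, the share was thus lower in each library, but this came from Eya2. There, 3 of 9 MyoD regions overlapped an H3K27ac region of any library. The numbers were 9 of 10 at Eya4, 3 of 3 at Eya3, 2 of 2 at Eya1 and 1 of 1 at Six4. Without Eya2 the share was higher than over all MyoD peaks in each library. Whether same-numbered MyoD and H3K27ac libraries share more than a label number is not known.

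**Figure D4:**
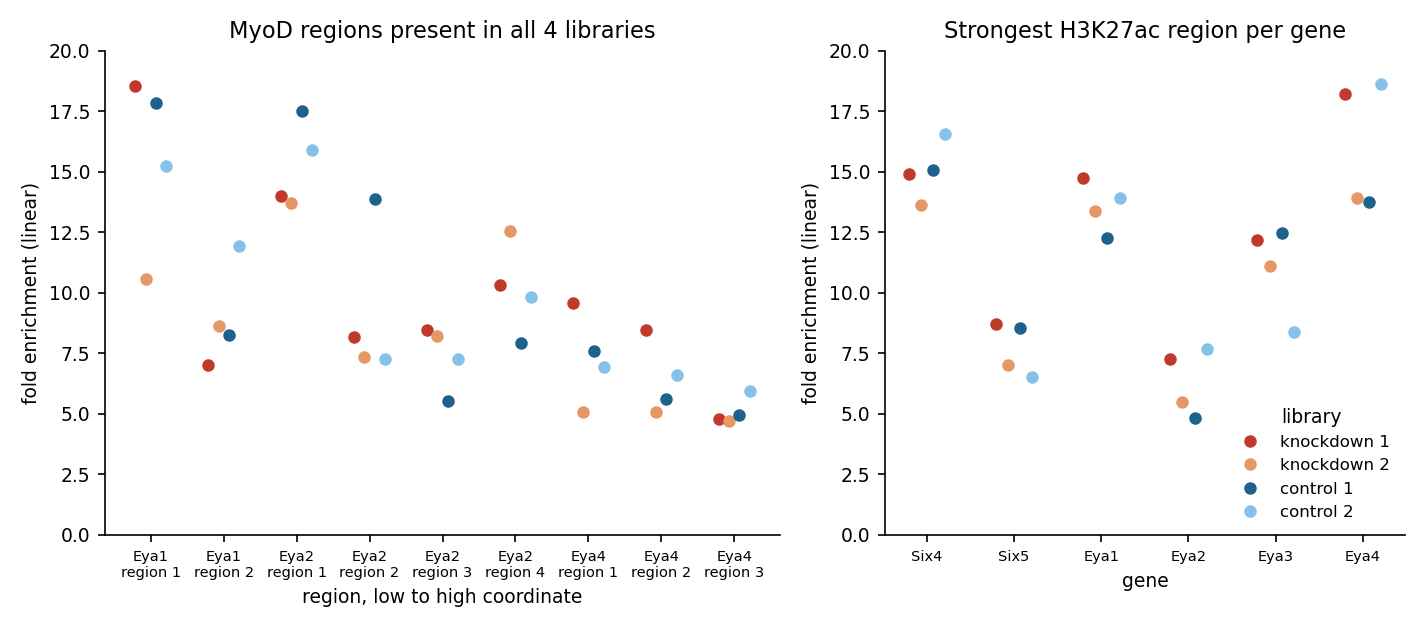
Fold enrichment (linear) in each library for the 9 MyoD regions present in all 4 libraries (left) and for the strongest constant H3K27ac region of each gene (right), knockdown in red and orange and control in blue. Knockdown points lie below control points at the first Eya2 region and above them at its last regions, and most other groups overlap.

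The other genes of the network were described in the same way, with 15 genes for Pax, Dach, Groucho and Ski proteins and for genes with a known Six-family input in muscle. Of these 14 had a region with each antibody, the exception being Dach2. Their 52 MyoD regions included 26 constant ones (50%, against 40.8% of all MyoD regions), 3 control-only ones (5.77%, against 4.55%) and 0 knockdown-only ones (against 0.729%). Their 156 H3K27ac regions included 60 constant ones (38.5%, against 43.6% of all H3K27ac regions), 5 control-only ones (3.21%, against 1.46%) and 2 knockdown-only ones (1.28%, against 0.769%). The group-limited counts are small, got no test and are given by name as a description. The control-only MyoD regions lay at Met, the receptor of hepatocyte growth factor (folds 4.30 and 4.64 in control), at Ski, a corepressor (5.95 and 4.92), and at Tle3, a Groucho corepressor (6.28 and 5.30). The control-only H3K27ac regions were 3 at Pax7, the satellite cell factor, and 1 each at Ski and Sobp. The knockdown-only ones lay at Ski and at Myog, a Six-family target, where the region 1.39 kb from the gene had folds of 2.51 and 4.21 in knockdown. All of these folds were below the median of constant regions, 8.36 for MyoD and 7.56 for H3K27ac.

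**Figure D5:**
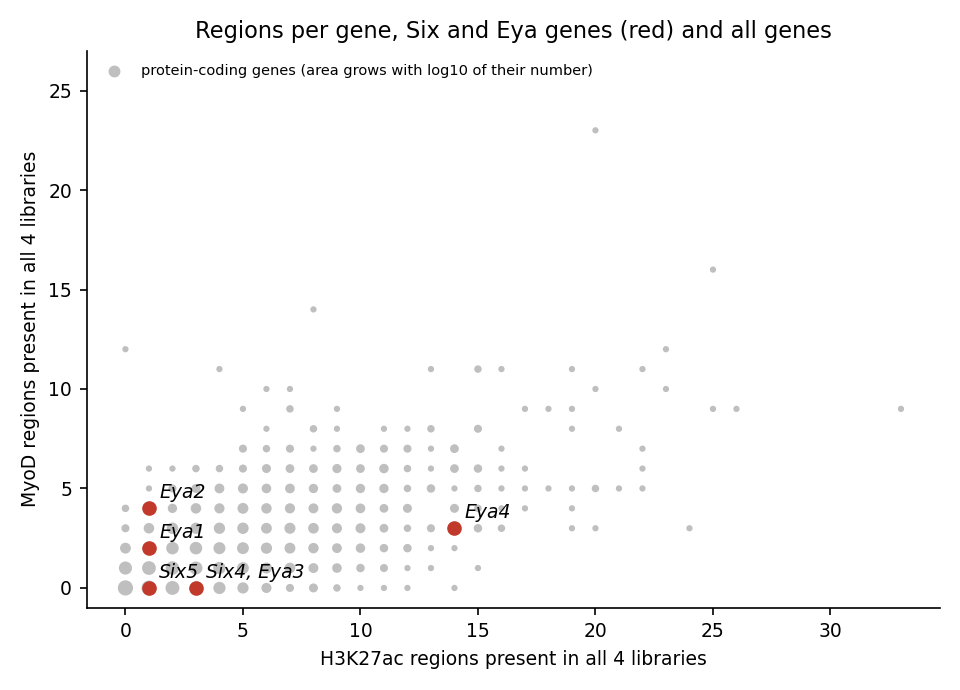
Number of constant MyoD regions against number of constant H3K27ac regions for all 21627 protein-coding genes (grey, area growing with the log10 of the number of genes at a point) and the 6 genes (red). Eya2 has 4 MyoD regions and 1 H3K27ac region, and Eya4 has 3 MyoD and 14 H3K27ac regions.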

How the data were processed

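Peak lists were used for the 8 ChIP libraries, 1 per library and so not called on pooled replicates. Per the submitters' processing notes the build was mm10 and the tools included MACS2 2.1.1, bedtools 2.26.0, SAMtools 1.3, Bowtie2 2.3.2 and Picard 2.9.2. Neither their options nor the control libraries used in peak calling are stated in the labels. The deposited lists give each peak a fold enrichment (a linear ratio), a −log10 p, a −log10 q and a score. The authors' score is 10 times the −log10 q, rounded down, and was not used further. Read counts are not in the lists, so the depth and counting error of a value are unknown, and a list from a deeper library can hold more weak peaks.

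Peaks on chromosomes 1 to 19 and X were merged per antibody (gap 0) with Python 3.11.15, numpy 2.4.6 and pandas 2.3.3. A region's fold in a library is that of its highest peak there. Genes and promoters came from RefSeq GRCm38.p6, and 4 of 6 members had a promoter entry. Percentiles were taken in each library over the regions present in all 4. Differences, knockdown minus control, were tested with an exact permutation test, two-sided, over all 6 ways of assigning the libraries to groups, with Benjamini-Hochberg adjustment over genes and antibodies. The procedure was tested on simulated data.

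Members and lists were chosen with earlier results of these data known. A marker gene of the cell type check is not reported here. Named were, per member, the strongest constant region of each antibody, regions limited to a group, those nearest a gene end and the widest H3K27ac region. For members with at least 5 regions of each antibody, 3 genes with the most similar region numbers were named, and other regions were picked after their values were seen. Alternatives covered the q threshold, the merging gap, the distance limit, assignment to 1 gene, equal numbers of peaks, the overlap minimum, each library left out and the replicate block.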

Additional observations from a re-analysis of the deposited data

How the results depend on the processing

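No call changed, since no exact test could pass, and p ranged from 0.333 to 1 over 230 alternatives of the gene tests, 17 of which reversed a difference. Of 71 alternatives of the counts 18 moved them by over 1.5 times. Differences are knockdown minus control. Control-only MyoD regions, 1 in the report, were 0 with a 10 kb limit and 0 with equal numbers of peaks, and 1 to 6 with a library left out. Leaving out a library leaves its group with 1, so a region found in that remaining library alone then counts as limited to the group. A region limited to the other group then needs to be absent only from that remaining library. Knockdown-only MyoD regions were 0 to 2 with a library left out. With a library left out, control-only H3K27ac regions, 0 in the report, were 1 to 11, with 11 without control replicate 1. Under the same looser rule knockdown-only ones, 1 in the report, were 1 to 11, with 11 without knockdown replicate 2. Knockdown-only H3K27ac regions were 0 at a −log10 q of at least 5, 0 with peaks within 1000 bp merged and 0 with equal numbers of peaks. MyoD regions overlapping H3K27ac, 18 in the report, were 8 at the stricter q and 9 with equal numbers of peaks.

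With equal numbers of peaks the Eya4 region number differed by 1 for MyoD and 1.5 for H3K27ac. At the stricter q the H3K27ac number at Six4 differed by −0.5 and the H3K27ac percentile at Eya2 by −2.73, against 0.146 with all peaks. At that q no MyoD region of Eya4 was left in all libraries. With the 10 kb limit the Eya1 H3K27ac number differed by −0.5. With a library left out, the MyoD percentile difference ranged from −14.2 to 2.27 at Eya1 and from −23.5 to 23.5 at Eya4, where it was −3.32 without control replicate 2. The H3K27ac percentile difference ranged from −9.44 to 17.1 at Six5, from −11.1 to 11.6 at Eya2 (−4.18 without knockdown replicate 1), from −5.14 to 23.1 at Eya3 and from −1.67 to 4.62 at Eya4 (−0.172 without knockdown replicate 1). The H3K27ac region number ranged from −0.5 to 1.5 at Eya1 and from −6 to 5.5 at Eya4 (1.5 without knockdown replicate 2). The causes were not tested.

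With the replicate block, differences were the same by construction (−2.5 for MyoD at Eya4) and p was at least 0.5. Same-numbered libraries deviated together in peak presence with a correlation of 0.0581 for MyoD and 0.0527 for H3K27ac. With 2 libraries per group this cannot decide whether they shared a culture or batch, and the labels do not say. Unknown depth and 2 libraries per group limit every comparison.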

Other observations

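Beyond the 50 kb limit, a further strong site lay upstream of Eya4, nearest to that gene. An H3K27ac region 97.5 kb from the gene had folds of 21.3 and 16.6 in knockdown and 18.96 and 24.9 in control, in each library higher than any H3K27ac region of Eya4 within the limit. It held 2 MyoD regions present in all libraries, with folds of 5.16 and 6.27 in knockdown and 7.93 and 5.30 in control at one, and 10.3 and 5.56 in knockdown and 11.2 and 7.62 in control at the other. Just inside the limit, an Eya1 H3K27ac region 48.7 kb away had a peak in knockdown 1 only (fold 2.73).

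Of 430 genes with at least 4 constant MyoD regions, 5 (1.16%) had none of them on constant H3K27ac, and Eya2 was one of the 5. This comparison was chosen after the values of Eya2 were seen.

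Across all 8 libraries, the genes with region numbers most like those of Eya2 were Ccdc83 and Lmna, with a summed absolute difference of 7 regions, and Cacna2d3, with 8. For Eya4 they were Atf6 with 9, Etv6 with 10 and Iqgap1 with 13. Ties were taken in alphabetical order, so Cacna2d3 is 1 of 2 genes at its difference and Iqgap1 1 of 3.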
